A study of Homo sapiens with 4 samples.

Results

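The SLIT and ROBO genes are 5 of the 17764 gene identifiers in the peak lists of an eCLIP study of FLAG-ZFR: the ligand genes SLIT1 (ENSG00000187122), SLIT2 (ENSG00000145147) and SLIT3 (ENSG00000184347) and the receptor genes ROBO1 (ENSG00000169855) and ROBO2 (ENSG00000185008). Their peaks were taken by gene identifier from every list, which gave 1237 of 479308 peaks in eCLIP 1, 123 of 41904 in eCLIP 2, 198 of 63068 in input 1 and 14 of 11204 in input 2. The set was chosen by SLIT2, a long gene selected on the number of its peaks that were found in both eCLIP libraries, so the peak counts, reads and overlaps of SLIT2 are given as a description, without a test. In eCLIP, ultraviolet light joins a protein to the RNA it touches, and the RNA that comes down with the protein is sequenced. The protein was ZFR, which binds RNA through its zinc fingers and belongs to the DZF family, with a FLAG tag. The 2 eCLIP libraries were set against 2 size-matched inputs, which hold RNA cut from the same part of the gel but not immunoprecipitated. Both groups came from Flp-In T-REx-293 cells, a human embryonic kidney line. All cells, those of the inputs included, carried FLAG-ZFR at the FRT site, were polyclonal, and were induced with doxycycline at 1 µg/mL for 48 to 72 h before crosslinking at 400 mJ/cm2. The copy that was mapped is thus an induced, tagged transgene. Whether replicate libraries had their own cultures is not stated, so the tests take in no more than the differences among these 4 libraries, and those may be technical.

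SLIT proteins are large secreted glycoproteins that bind ROBO receptors, single-pass membrane proteins of the immunoglobulin superfamily. The pair is best known for repelling growing axons at the midline of the nervous system, and in the mouse Slit2 and Robo2 also position the outgrowth that forms the kidney. The genes are long and consist mostly of introns. SLIT2 and SLIT3 also carry the 2 copies of the microRNA miR-218 in their introns, and miR-218 is known to target ROBO1.

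The miR-218 sequences are shown because they are a feature that SLIT2 and SLIT3 share and that was not used to choose them. They come from RefSeq on GRCh38.p14, and the capitals mark the seed, bases 2 to 8. 3 of the 5 genes contained an annotated microRNA there: MIR218-1 lay in SLIT2 (chromosome 4, plus strand), MIR218-2 and MIR585 in SLIT3 (chromosome 5, minus strand), and MIR3923 within ROBO1 on the opposite strand. The mature 5p strand was identical in both copies.
hsa-miR-218-5p: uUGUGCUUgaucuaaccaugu
hsa-miR-218-1-3p: aUGGUUCCgucaagcaccaugg
hsa-miR-218-2-3p: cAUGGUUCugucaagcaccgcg
In that build the MIR218-1 hairpin began 276 kb from the start of SLIT2 and the MIR218-2 hairpin 533 kb from the start of SLIT3. The peaks are on hg19, and the hairpins were not placed among them. The sequences of the peaks were not analysed here.

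The lists differed widely in length and in strength. They held 479308 and 41904 peaks in eCLIP 1 and 2 and 63068 and 11204 in input 1 and 2, with 3075352, 229647, 249245 and 102084 reads in those peaks, and every listed peak had at least 3 reads and a deposited p-value of at most 0.05. Because of this, a gene's peaks are given both as a number and per 10000 peaks of the library, with a Wilson 95% interval that covers counting error only. Sequencing depth beyond the reads in peaks is unknown. RNA levels enter only through the inputs, and their part in the number of peaks of a gene was not tested.

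Among the ligand genes, SLIT2, which encodes the family member most studied as an axon repellent, held nearly all the peaks. It had 649 peaks in eCLIP 1 and 107 in eCLIP 2, against 109 in input 1 and 9 in input 2. These are 13.5 (12.5 to 14.6) and 25.5 (21.1 to 30.8) per 10000 peaks in the eCLIP libraries, against 17.3 (14.3 to 20.8) and 8.03 (4.23 to 15.3) in the inputs. The groups overlapped on this measure, since input 1 lay between the 2 eCLIP libraries. SLIT2 ranked 15 of 15839 genes by number of peaks in eCLIP 1 and 5 of 7728 in eCLIP 2, but also 5 of 11275 in input 1 and 77 of 5891 in input 2.

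Counted by reads, SLIT2 took a larger share of both eCLIP libraries than of either input. Its peaks held 7194 and 410 reads in eCLIP 1 and 2, against 399 and 30 in input 1 and 2. Per 10000 reads in peaks the eCLIP libraries had 23.4 and 17.9, against 16.0 and 2.94 in the inputs, so both eCLIP values lay above both input values. Of all genes tested, 25.0% had that order by reads and 9.08% the opposite order, SLIT3 among the second. Within the libraries numbered 1 the eCLIP share was 1.46 times the input share, and within those numbered 2 it was 6.08 times.

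SLIT1 and SLIT3, the other ligand genes, had few and weak peaks. SLIT1 held 20 peaks in eCLIP 1 and 1 in eCLIP 2, against 2 in input 1 and 0 in input 2, or 0.417 and 0.239 against 0.317 and 0 per 10000 peaks. No SLIT1 peak had over 4 reads, and every one of them was also listed under a second identifier, ENSG00000269891.1, so the reads cannot be assigned to SLIT1 alone. SLIT3 held 6 peaks in eCLIP 1 and 0 in eCLIP 2, against 6 in input 1 and 1 in input 2, or 0.125 and 0 against 0.951 and 0.893 per 10000. With touching peaks joined, SLIT3 had 4 regions in input 1. It was the only one of the 5 genes with both eCLIP shares below both input shares, an order found in 10.2% of the 8914 genes tested. The opposite order by number of peaks, both eCLIP shares above both inputs, was found in 21.1% of genes and in none of the 5. With touching peaks joined, the 2 SLIT1 peaks of input 1 made 1 region. SLIT1 then had that opposite order, at 0.420 and 0.243 per 10000 regions in eCLIP, against 0.216 and 0 in the inputs.

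Of the receptor genes, ROBO1, which encodes a widely expressed SLIT receptor, held 446 and 11 peaks in eCLIP 1 and 2, against 61 and 3 in input 1 and 2. The shares were 9.31 and 2.63 per 10000 peaks in eCLIP, against 9.67 and 2.68 in the inputs. They were thus almost equal within each number, at 0.962 and 0.980 times the input, and differed more between the numbers than between the groups. In input 1 many neighbouring ROBO1 intervals touched, and joined they made 34 regions of the 61 peaks. With touching peaks joined in every library the ROBO1 shares were 9.30 and 2.43 per 10000 regions in eCLIP, against 7.33 and 1.83 in the inputs. ROBO2, whose product is the SLIT receptor needed for kidney outgrowth in the mouse, held 116 and 4 peaks in eCLIP, against 20 and 1 in the inputs. Its shares were 2.42 and 0.955 per 10000 peaks in eCLIP, against 3.17 and 0.893 in the inputs. By reads, ROBO1 took 7.17 and 1.70 per 10000 in eCLIP, against 8.43 and 3.13 in the inputs, and ROBO2 took 1.35 and 0.871, against 2.57 and 0.490. Reads were summed over the peaks as listed. In input 1 many touching ROBO1 peaks held equal numbers of reads, and whether they count the same reads was not tested. In input 2 a single peak held 26 of the 32 ROBO1 reads.

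**Figure D1:**
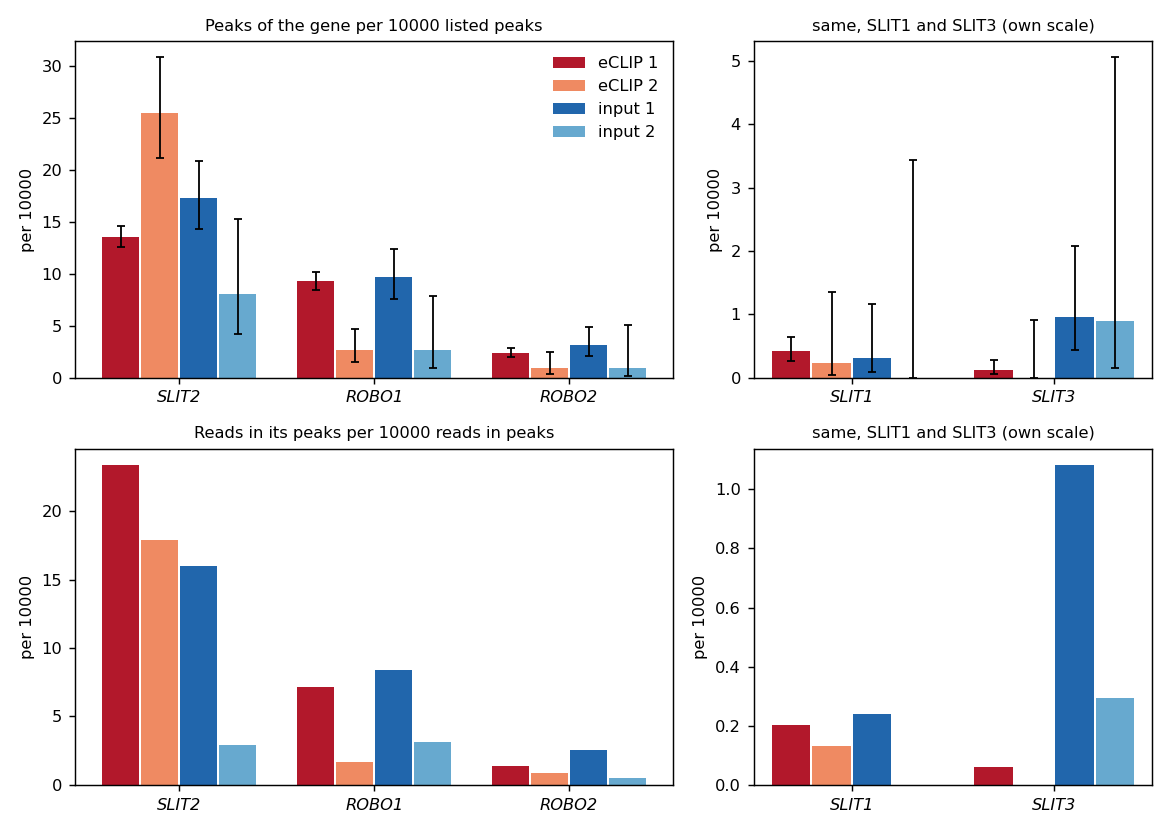
Share of each library taken by the 5 genes, as peaks per 10000 listed peaks (top, bars with Wilson 95% intervals) and as reads per 10000 reads in peaks (bottom), with eCLIP 1 and 2 left of input 1 and 2 and with SLIT1 and SLIT3 on their own scale. SLIT2 stands above the other genes by number of peaks in the 4 libraries, but by reads not in input 2, where ROBO1 has 3.13 and SLIT2 2.94. Its eCLIP bars exceed both inputs by reads (23.4 and 17.9 against 16.0 and 2.94) but not by number of peaks.

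The genes were then compared by the length of sequence over which their peaks lay. On hg19 the peaks of SLIT1 spanned 180 kb of chromosome 10 (98761394 to 98941624, minus strand), those of SLIT2 367 kb of chromosome 4 (20255307 to 20622025, plus strand) and those of SLIT3 449 kb of chromosome 5 (168142259 to 168590838, minus strand). ROBO1 spanned 737 kb of chromosome 3 (78646644 to 79383366, minus strand) and ROBO2 1519 kb of the same chromosome (76138084 to 77656768, plus strand). These spans pool the peaks of all libraries. In ROBO2 only input peaks lay in the first 874 kb. In ROBO1 the first eCLIP 1 peak, of 4 reads, lay 315 kb before the next. Densities over the spans are lowered by this in both genes. Per 100 kb of span, eCLIP 1 listed 177 peaks in SLIT2, 60.5 in ROBO1, 11.1 in SLIT1, 7.64 in ROBO2 and 1.34 in SLIT3. In input 1 the same densities were 29.7, 8.28, 1.11, 1.32 and 1.34. SLIT2 had the highest density and ROBO1 the next in all 4 libraries, also in eCLIP 2 (29.2 and 1.49) and input 2 (2.45 and 0.407). The order of the remaining 3 differed between libraries and rested on 20 peaks or fewer per library, apart from ROBO2 in eCLIP 1.

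A test across all genes placed none of the differences beyond the spread between libraries. Differences of eCLIP minus input in log2(peaks per 10000 + 0.5) were fitted with limma over the 4 libraries for the 8914 genes with at least 10 peaks, a filter that all 5 genes passed. limma called 0 genes higher (0%) and 0 lower (0%) at an adjusted p of 0.05, and 112 higher and 62 lower at an unadjusted p of 0.05. The log2 difference was -1.35 (SE 0.76) for SLIT3, 0.36 (SE 0.58) for SLIT1 and -0.13 (SE 0.81) for ROBO2, each with an adjusted p of 0.995 from limma. For ROBO1 it was -0.04 (SE 0.92) with an adjusted p of 0.998 from limma. The sign for ROBO1 turned without eCLIP 2 (0.79) and without input 1 (0.80), as it did for ROBO2 (0.37 and 0.57). Without eCLIP 2, which leaves 1 eCLIP library, limma called 663 genes higher and none of the 4 tested here.

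For SLIT2 the same fit gave a log2 difference of 0.63 (SE 1.13), which is given without a p. The value was larger in alternatives that gave more weight to strong peaks, though the standard errors were wide. Over peaks of p at most 0.001 it was 1.41 (SE 1.12), with reads in place of peaks 1.47 (SE 0.89), and with every list cut to its 11204 best peaks 1.60 (SE 0.93). The middle gene of all those tested moved too: its log2 difference was 0.16 with all peaks, 0.83 at the stricter p, 0.16 by reads and 0.68 in the lists of equal length. In those lists of equal length SLIT2 held 66.0 and 17.0 per 10000 peaks in eCLIP, against 14.3 and 8.03 in the inputs. Both eCLIP shares lay above both inputs there, as they did for 32.8% of the 959 genes that could be tested on these lists, while 7.51% had both below.

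The peaks of SLIT2 in eCLIP 1 were strong for their number. They held 4 to 40 reads with a median of 10, and 41.8% held over 10 reads, against 8.36% of all peaks of that library, where the median was 4. In eCLIP 2 the median was 3 reads and the highest 10, against a median of 3 and a highest of 8 in input 1 and of 3 and 5 in input 2. Of the 1119 genes with at least 100 peaks in eCLIP 1, 34 had a higher median than SLIT2, and the middle gene had a median of 4. SLIT2 had no eCLIP 1 peak at the minimum of 3 reads, while 1064 of these 1119 genes did. The deposited p-value for a given number of reads differed between genes. With 5 reads in eCLIP 1 it was up to 0.0303 in SLIT2 and up to 0.00233 in ROBO1. How far the p limit of the lists set the lowest and median reads of SLIT2 was not tested. ROBO1 peaks in eCLIP 1 had a median of 4 reads and a highest of 17, and ROBO2 peaks a median of 3 and a highest of 8.

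The peaks of SLIT2 were strong but not wide. In eCLIP 1 the median peak was 25 bases wide in SLIT2, 27 in ROBO1 and 25 in ROBO2, against 28 in the whole list. On the -log10 scale the median deposited p-value in eCLIP 1 was 4.02 for SLIT2, 2.22 for ROBO1, 1.67 for ROBO2, 1.67 for SLIT3 and 1.55 for SLIT1, against 1.98 for the whole list. Of the SLIT2 peaks, 447 in eCLIP 1 and 10 in eCLIP 2 had a p-value of at most 0.001, against 14 in input 1 and 1 in input 2. For ROBO1 these numbers were 135 and 2, against 6 and 1. SLIT1 had none in any library, and the 1 such peak of SLIT3 lay in input 1.

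Peaks found in both eCLIP libraries were counted next, where a shared base on the same strand made 2 peaks overlap. In SLIT2, 50 of the 649 eCLIP 1 peaks overlapped a peak of eCLIP 2, and 45 of them overlapped no input peak. ROBO1 had 5 such eCLIP-only peaks and ROBO2 had 2, while SLIT1 and SLIT3 had 0. Of the 15839 genes with an eCLIP 1 peak, 24.6% held at least 1. The eCLIP-only shared peaks made up 6.93% of SLIT2 peaks, 1.12% of ROBO1 peaks and 1.72% of ROBO2 peaks in eCLIP 1, against 2.52% of the whole list. SLIT2 stood at rank 4 of all genes, between a gene with 50 and genes with 44. Of the 105 other genes with 0.5 to 2 times as many eCLIP 1 peaks, 2 had as many or more, and the middle gene had 5. SLIT2 was chosen for its shared peaks, so its high place on this count follows from the choice and is a description only. The genes were matched on eCLIP 1 peaks alone, not on eCLIP 2 peaks or on density. For ROBO1, 110 of 234 genes of like size had as many or more, and for ROBO2 982 of 2125.

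The overlap was then split by the reads in a peak. Of SLIT2 peaks in eCLIP 1 with over 20 reads, 29.8% (19.5 to 42.7) were found in eCLIP 2, against 36.7% (35.7 to 37.7) of all such peaks. With 11 to 20 reads it was 7.48% (4.65 to 11.8), against 11.3% (10.9 to 11.6), and with 4 to 10 reads 4.50% (2.83 to 7.08), against 2.26% (2.20 to 2.31). SLIT2 was thus below the list in both classes of more than 10 reads and above it in the class of 4 to 10 reads, which held 378 of its 649 peaks. Because SLIT2 was chosen on this overlap, the order is a description only. The classes were also not matched on reads. At least 4 reads were held by 100% of SLIT2 peaks and 68.0% of the list, and at least 5 by 94.8% and 45.3%. Over all classes 7.70% (5.89 to 10.0) of SLIT2 peaks and 2.96% (2.91 to 3.00) of the list were found. Seen from eCLIP 2, 50 of its 107 SLIT2 peaks, or 46.7% (37.6 to 56.1), lay on an eCLIP 1 peak, against 33.1% (32.7 to 33.6) of that list. For eCLIP 2 peaks with 3 reads it was 51.7% (39.3 to 63.8), against 28.0% of the list. The input peaks of SLIT2 also met eCLIP 1 often, in 32 of 109 cases for input 1 (29.4%, 21.6 to 38.5, against 12.8% of that list) and in 5 of 9 for input 2, against 25.1% of that list. 0 SLIT2 peaks of the inputs met each other, where 3.43% of all input 1 peaks met input 2 and 18.4% of all input 2 peaks met input 1.

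**Figure D2:**
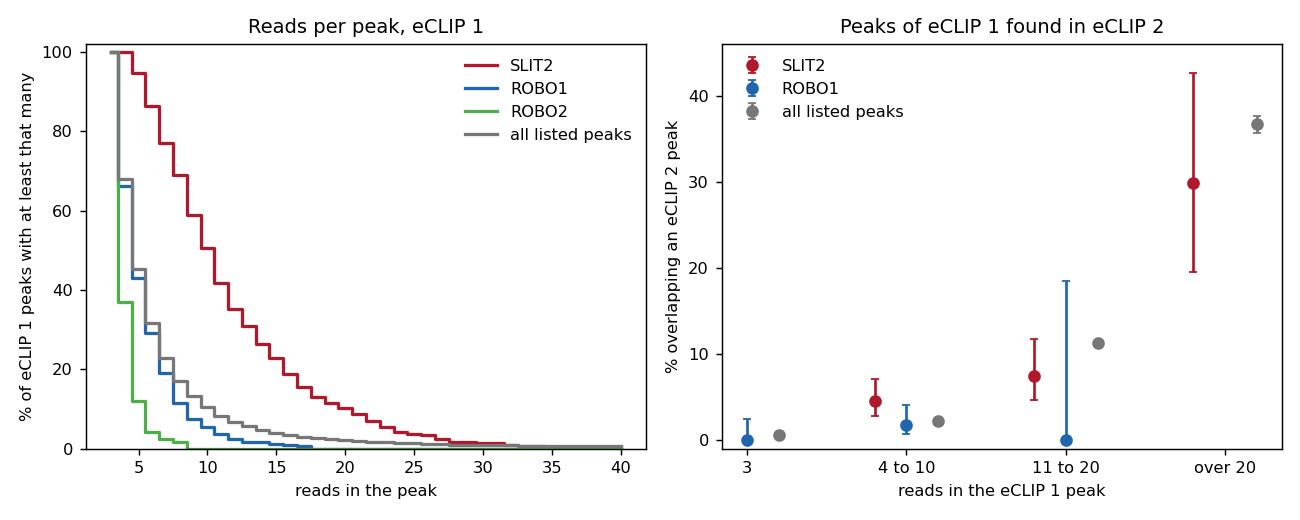
Left, percent of eCLIP 1 peaks with at least the number of reads on the x axis, for SLIT2, ROBO1, ROBO2 and all listed peaks; right, percent of eCLIP 1 peaks that overlap an eCLIP 2 peak by reads in the peak, with Wilson 95% intervals. On the left, 41.8% of SLIT2 peaks and 8.36% of the list hold over 10 reads, while at the far end, from 33 reads on, the SLIT2 curve runs below the list. On the right, the share of SLIT2 peaks found rises with reads, to 29.8% against 36.7% of the list for peaks of over 20 reads.

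Shared peaks lie near each other by the way they were chosen. In the 50 of SLIT2 the position the lists give inside the peak differed by a median of 5 bases between the eCLIP libraries and by at most 42, with a median of 19.5 shared bases in peaks of a median width of 35.5. They had a median of 13 reads in eCLIP 1, against 9 for the 599 peaks not found in eCLIP 2. In eCLIP 2 they held 3 to 10 reads with a median of 3. The 57 SLIT2 peaks of eCLIP 2 that were not found in eCLIP 1 lay a median of 121 bases from its nearest peak, and 48 of them within 500 bases. The 77 SLIT2 peaks of input 1 not found in eCLIP 1 lay about as near, at a median of 133 bases, with 62 within 500. Neighbouring eCLIP 1 peaks of SLIT2 were a median of 0.26 kb apart, so a peak of any library often lies near one.

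The strongest shared site of SLIT2 lay at chr4:20527600-20527638 (hg19, plus strand), with 36 reads in eCLIP 1 and 8 in eCLIP 2, and deposited p-values of 3.3e-26 and 6.8e-06. It was followed by chr4:20304267-20304314, with 33 and 10 reads. The next were chr4:20288060-20288126 and chr4:20280787-20280855, each with 32 and 5 reads, and chr4:20289889-20289942 with 31 and 3. The sites chr4:20288744-20288785, chr4:20529846-20529924 and chr4:20280885-20280920 had 27 and 6, 29 and 3, and 27 and 4 reads. The last of the 10 highest were chr4:20297086-20297129 with 23 and 7 reads and chr4:20333945-20333997 with 25 and 3. None of these 10 overlapped an input peak, as 12067 of the 14167 shared peaks of the whole list did not. 8 of them lay within the first 78.7 kb of the span, and the remaining 2 lay at 272 and 275 kb. The highest eCLIP 1 peak of the gene, with 40 reads, was not found in eCLIP 2.

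Of the 50 shared SLIT2 sites, 5 also overlapped an input peak. At chr4:20277860-20277903 there were 16 and 4 reads in eCLIP, against 3 in input 2, and at chr4:20287192-20287234 there were 10 and 3, against 3 in input 2. Input 1 had 3, 4 and 3 reads at chr4:20309684-20309723, chr4:20328186-20328241 and chr4:20554959-20554994, where eCLIP 1 had 9, 17 and 6 and eCLIP 2 had 3 each. No SLIT2 interval was listed in all 4 libraries.

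Peaks of SLIT2 gathered toward the 5′ end of the gene in eCLIP and input alike. The 5′ 50% of the span held 82.3% (79.2 to 85.0) and 80.4% (71.9 to 86.8) of its peaks in eCLIP 1 and 2, against 74.3% (65.4 to 81.6) in input 1 and 7 of 9 in input 2. The intervals cover the counting of peaks within each library, and the difference between the groups was not tested. In 6536 genes, those with no fewer than 20 peaks and 5 kb of span, the values were 58.6% and 59.4% for eCLIP, against 51.6% and 53.3% for the inputs. The reads per peak differed along the gene as well. With the span in 10 equal sections, the median eCLIP 1 peak held 13 reads in section 1, 6 in section 5 and 12 in section 8.

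Within SLIT2 the eCLIP 1 peaks formed 1 long stretch and several short ones, when peaks no more than 5 kb apart were joined and stretches of at least 10 peaks kept, a rule chosen after the data were seen. The long stretch ran over the first 187 kb and held 537 peaks of eCLIP 1 and 86 of eCLIP 2, against 82 of input 1 and 7 of input 2. A gap of 22.3 kb without an eCLIP 1 peak came after 212 kb. A stretch of 8.17 kb at chr4:20522444-20530616 was about as dense, with 29.4 eCLIP 1 peaks per 10 kb, against 28.8 in the long one. It held 24 peaks with a median of 12.5 reads and up to 36 in eCLIP 1 and 4 peaks in eCLIP 2, against 6 in input 1 and 0 in input 2, and it contained 3 of the shared sites.

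**Figure D3:**
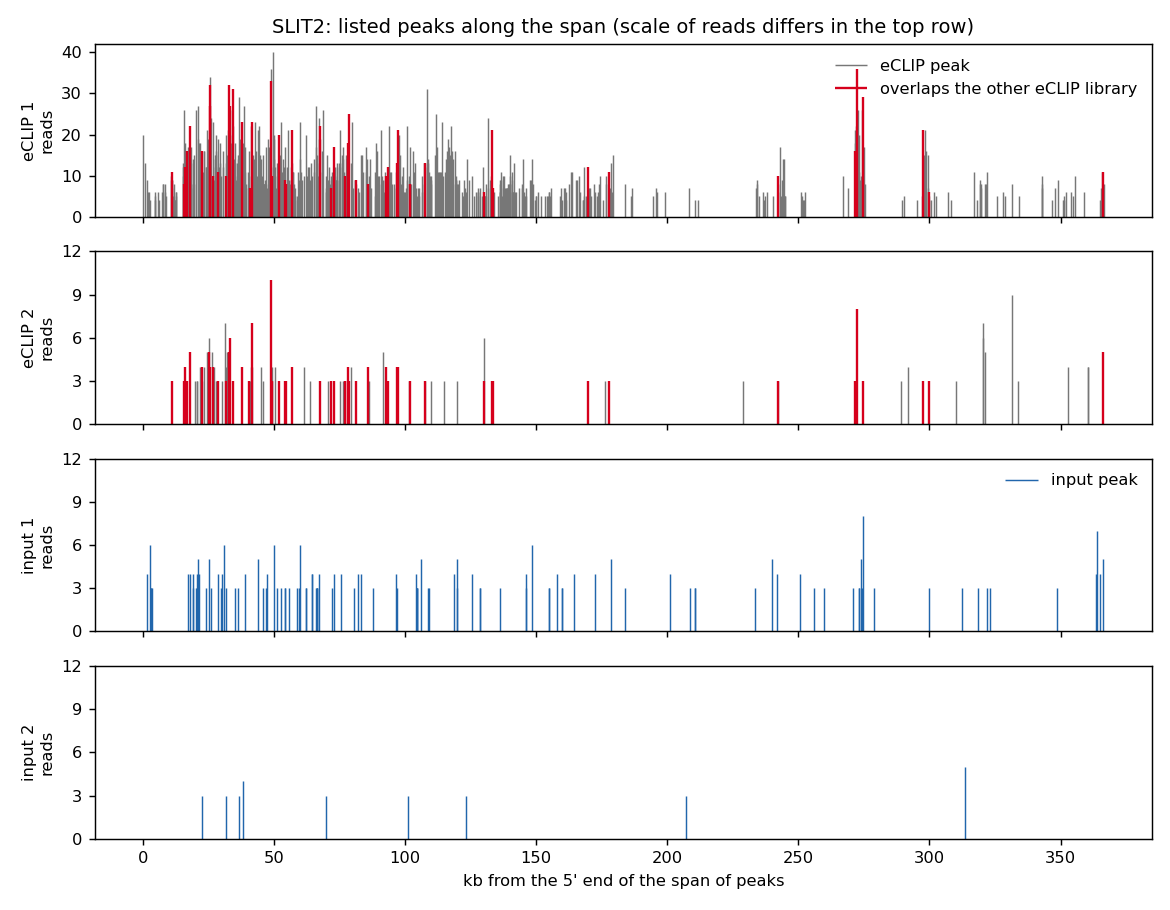
Every listed SLIT2 peak in eCLIP 1, eCLIP 2, input 1 and input 2 (top to bottom), by distance in kb from the 5′ end of the span of peaks, with the height giving the reads in the peak and red marking peaks that overlap the other eCLIP library; the top row has its own scale. Peaks crowd the first 187 kb in eCLIP 1, and a short group near 272 kb stands out with up to 36 reads.

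In ROBO1 most peaks lay in the middle of the span, but 1 eCLIP 1 peak of 4 reads set the 5′ end of that span. Where the peaks lie within the span therefore rests on this peak. The first 315 kb held 1 eCLIP 1 peak and 2 input 2 peaks, and none of eCLIP 2 or input 1. The rule used for SLIT2 gave 4 stretches, of which the 2 nearest the 5′ end held most of the peaks. The one at chr3:79008618-79068104 held 88 and 2 peaks in eCLIP 1 and 2, against 8 and 0 in the inputs, and the one at chr3:78826449-78992750 held 305 and 9, against 36 and 1. The remaining 2 held 11 and 16 eCLIP 1 peaks. The stretch with 305 peaks had 68.4% of the eCLIP 1 peaks of the gene and all 5 shared sites. RefSeq lists 2 starts for ROBO1, which are 749 kb apart on GRCh38, and 2 for ROBO2, 729 kb apart. On GRCh38 ROBO1 is 1171 kb long, and on hg19 its first stretch began 315 kb into the 737 kb span. Which start the peaks of either gene follow was not tested.

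The 5 shared ROBO1 sites lay within 25 kb, between 78926153 and 78950927. The strongest, chr3:78946609-78946643 on the minus strand, had 8 reads in eCLIP 1 and 5 in eCLIP 2, and the others had 4 to 7 and 3. Their positions inside the peak differed by at most 7 bases. The single highest ROBO1 peak was an input peak. At chr3:78940142-78940191 input 2 had 26 reads and input 1 had 8, where eCLIP 1 had 4 and eCLIP 2 no peak, and this was the 1 ROBO1 interval listed in 3 libraries. It held 26 of the 32 ROBO1 reads of input 2.

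In ROBO2 the eCLIP peaks began 874 kb into the span, with input peaks ahead of them. Input 1 had 5 of its 20 peaks and input 2 its only peak before the first eCLIP 1 peak. That first peak was one of the 2 sites found in both eCLIP libraries. It lay at chr3:77012155-77012171 with 5 reads in eCLIP 1 and 7 in eCLIP 2, and stood 136 kb before the next eCLIP 1 peak. The other shared site was chr3:77184737-77184769, with 3 and 6 reads. It lay in a stretch from 77148080 to 77199761 that held 61 and 3 peaks in eCLIP, against 6 and 0 in the inputs.

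**Figure D4:**
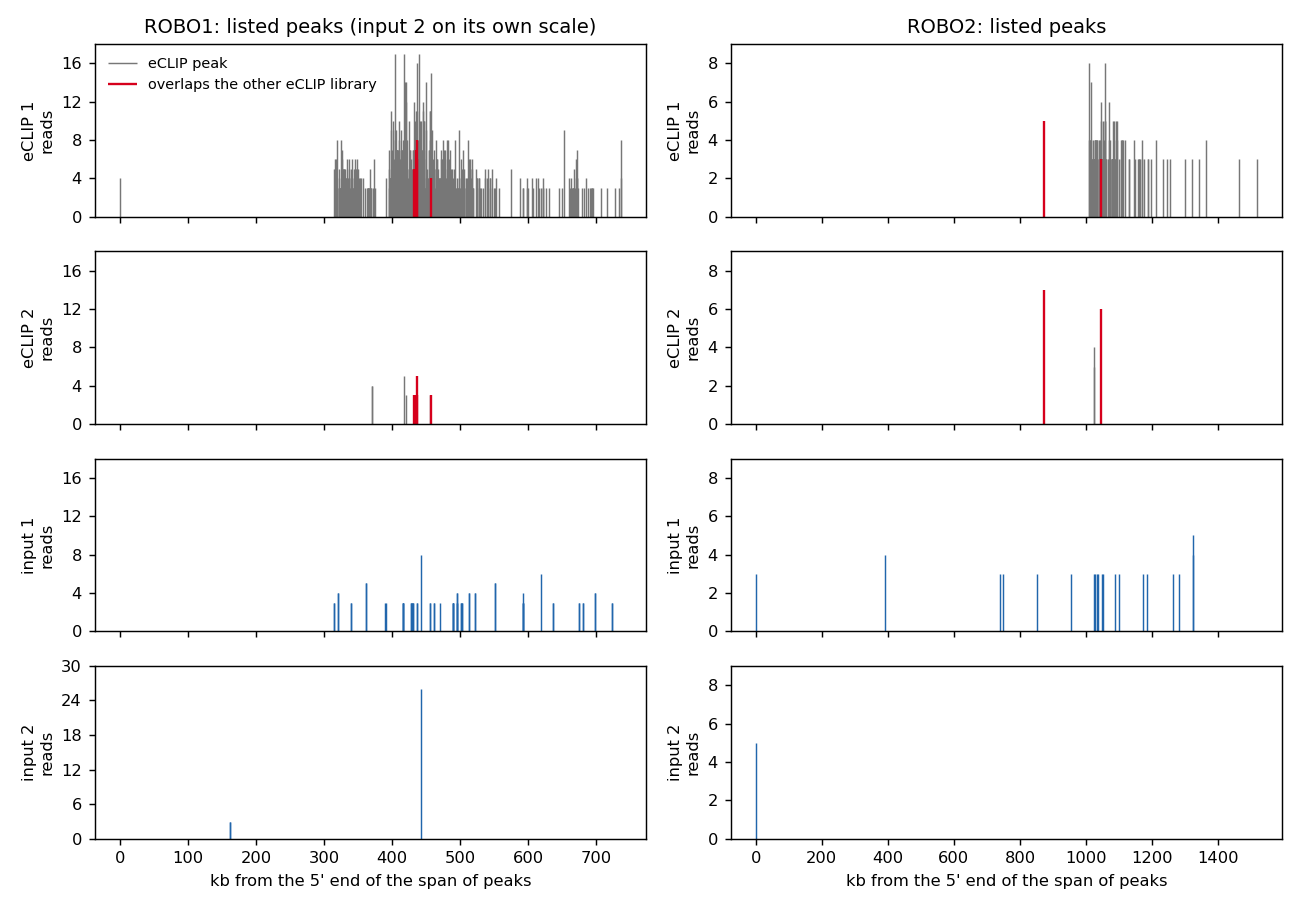
Every listed ROBO1 (left) and ROBO2 (right) peak in eCLIP 1, eCLIP 2, input 1 and input 2 (top to bottom), by distance in kb from the 5′ end of each gene's span of peaks, with the height giving the reads and red marking peaks that overlap the other eCLIP library; ROBO1 in input 2 has its own scale. ROBO1 peaks lie mostly between 315 and 557 kb, with the 26-read input 2 peak near 443 kb, and ROBO2 eCLIP peaks begin at 874 kb.

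No peak of SLIT1 or SLIT3 overlapped one of another library, where 2.96% of all eCLIP 1 peaks met eCLIP 2 and 1.53% met input 1. With 20 and 6 eCLIP 1 peaks, 0 is near that background. In SLIT1 the eCLIP 1 peaks lay between 0.010 and 167 kb into the span, and the 1 peak of eCLIP 2 at 180 kb, against 90.0 and 90.1 kb for the peaks of input 1. In SLIT3 the eCLIP 1 peaks lay between 45.9 and 208 kb, against 0.009 to 449 kb in input 1 and 286 kb in input 2.

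No gene lay close to SLIT2 in its values over the libraries. Likeness was measured as the distance between genes in log2(peaks per 10000 + 0.5) over the 4 libraries. The gene nearest to SLIT2, ENSG00000100154.10, lay 1.03 away, with 14.0 and 12.4 per 10000 in eCLIP, against 16.3 and 8.93 in the inputs. The next, ENSG00000144724.14, lay 1.06 away. ROBO1 had its nearest gene at 0.521 and ROBO2 at 0.128. SLIT1 and SLIT3 had 520 and 70 genes within 0.5, while SLIT2 and ROBO1 had none. Genes with few peaks take a small set of values on this scale, and the 5 nearest to SLIT1 all lay at 0.032. SLIT2 and ROBO1 ranked 15 and 53 by peaks in eCLIP 1, where few genes lie. How far these distances reflect the number of peaks alone was not tested. The files do not pair these identifiers with names.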

How the data were processed

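The members and lists were chosen with earlier results of these data known. Per the submitters' processing notes, cutadapt, STAR and SAMtools were used with hg19; no version, peak caller or annotation is given in these notes. Each list deposited by the authors covers 1 library, with an interval, a versioned gene identifier, a p-value and a score per peak. The deposited score is a rounded and capped -log10 form of the p-value and was not used. The number that ends each peak name was taken as the reads in that peak, although no file says so. The list of 59792 RefSeq genes that was used carries no Ensembl identifiers, so none of the 17764 identifiers could be matched to it. The guidance pathway and netrin lists were therefore not tested, and the 5 names come from the choice of genes.

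Peaks per gene were divided by all listed lines of the library. Genes were fitted with limma 3.58.1 in R 4.3.3 (eBayes with trend, two-sided, Benjamini-Hochberg). The fit was also run on simulated counts that varied within a group by counting error only. That run does not show how the fit behaves under the wider spread of these libraries. A count model was not used, because peaks are not reads. An exact permutation test of 2 against 2 libraries cannot go below p = 0.333. Overlaps needed 1 base on the same strand. Intervals are Wilson 95%. The named sites are the 10 shared peaks of SLIT2 and up to 6 of each other gene with most reads summed over both eCLIP libraries, and the intervals in 3 or more libraries. Alternatives changed the p limit, pseudocount, filters, reads, merging, list length, repeated lines, trend, block and libraries. Coordinates are hg19, counted from 1.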

Additional observations from a re-analysis of the deposited data

How the results depend on the processing

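The sign of the difference was kept for SLIT1 and SLIT3 in all 10 alternatives that gave a value, with limma's adjusted p from 0.611 and from 0.494 upward. For ROBO1 it turned positive in 4 of 15: 0.11 with p of at most 0.001 (where the middle gene was at 0.83), 0.33 with touching peaks merged (input 1 had 34 regions in place of 61 peaks), 0.79 without eCLIP 2 and 0.80 without input 1. ROBO2 turned positive at 0.37 without eCLIP 2 and 0.57 without input 1. Leaving out each library gave -0.88 to 0.80 for ROBO1, -0.83 to 0.57 for ROBO2 and 0.10 to 1.16 for SLIT2. It gave 0.01 to 0.72 for SLIT1, with no value without eCLIP 1, and -1.38 to -1.19 for SLIT3, with none without eCLIP 1 or without input 1. SLIT2 was 1.41 with p of at most 0.001, 1.47 by reads and 1.60 in lists of equal length, where the middle gene was at 0.83, 0.16 and 0.68. Over all genes these fits called 0 to 663 higher, the 663 without eCLIP 2, and 0 to 1 lower. In them 1 group has a single library, whose spread is taken from the other. The replicate block called 3 genes higher and 1 lower. Deviations of same-numbered libraries correlated at 0.397 over genes. In both groups the list numbered 1 was the longer, and the part of list length in this correlation of same-numbered libraries was not tested. The labels do not say what a number shares, so whether these libraries share more than a number is unknown. The block changed no call for the 4 genes tested.

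The 45 eCLIP-only shared peaks of SLIT2 became 4 with p of at most 0.001, 8 with at least 5 reads and 6 in lists of equal length, since most of these peaks held 3 or 4 reads in eCLIP 2. ROBO1 had 1, 1 and 0 and ROBO2 1, 1 and 0 in the same order. The share of SLIT2 peaks in the 5′ 50% of the span was 85.5% by reads and 87.2% at p of at most 0.001. That of ROBO1 was 8.89% at that limit, over a span whose 5′ end is set by 1 eCLIP 1 peak of 4 reads. For ROBO2 it was 0%, but 91.4% when the span was taken from eCLIP 1 alone, because input peaks set its 5′ end. SLIT1 and SLIT3 had no value at p of at most 0.001, in lists of equal length or with at least 30 peaks, SLIT1 none without repeated lines, and ROBO2 none in lists of equal length.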
